A study of Solanum lycopersicum with 6 samples.

Results

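Solitary peaks are accessible regions that stand alone, with more than 20000 bp of sequence free of called peaks on either side. They were found in a list of accessible regions made by ATAC-seq from inflorescences of tomato (Solanum lycopersicum) that carry anantha-e1546, a mutation of the gene ANANTHA, in the M82 background. The product of ANANTHA, a protein with an F-box, drives meristems to become flowers, and plants that lack it keep making meristems instead, which makes the tissue rich in them. The plants grew in a greenhouse with 16 h of light a day. The 6 biological replicates form 1 group, with no other genotype or treatment beside it, and were deposited as 1 joint peak list. Of 80696 peaks, 80175 lay on the 12 chromosomes, and 926 of these (1.15%) were solitary. Members were chosen by the distances between peak edges in this list, so their isolation is given as a description. Strength and score were not used in the choice, and width entered only through the edges. Depth per sample is unknown from the list, and no value could be given per replicate. The spread quoted is that among the 12 chromosomes, and p-values measure that spread and not the spread among plants.

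In ATAC-seq a transposase cuts DNA left free by nucleosomes, and stretches with many cuts are called as peaks. Accessible regions in plants are commonly promoters close to genes, and others are distal regulatory elements such as enhancers. Tomato chromosomes carry most of their genes toward the ends, and their long interiors are rich in transposable elements packed as heterochromatin. Each peak carries a width, a score with a cap of 1000 and the −log10 of a q value, which is called its strength here. All 3 are the authors' own values and describe peaks within this list. No annotation or sequence of the build of the list, SL4.0, was used here, so no gene, exon, intron or promoter is assigned to a peak and no sequence is shown.

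The solitary peaks were spread over all 12 chromosomes. Chromosome 1 held the most, 131, followed by chromosome 12 with 97 and chromosome 5 with 89. Chromosome 6 held the fewest, 46. Relative to the span from the first base to the end of the last peak, chromosome 12 was the most densely occupied, with 1.45 solitary peaks per Mb (95% exact Poisson interval 1.18 to 1.77). Chromosome 3 was the least, with 0.93 per Mb (0.71 to 1.20). These intervals cover counting error only, and they overlap slightly. Over the 12 chromosomes the density was 1.19 ± 0.19 per Mb (SD, n = 12).

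The share of a chromosome's peaks that were solitary followed another order. It was 1.79% on chromosome 12, 1.53% on chromosome 5 and 1.46% on chromosome 10, against 0.69% on chromosome 6 and 0.75% on chromosome 3, with a mean of 1.19% ± 0.35 (SD, n = 12). Chromosome 1, the richest in number, had 1.38% of its 9494 peaks in this class.

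**Figure D1:**
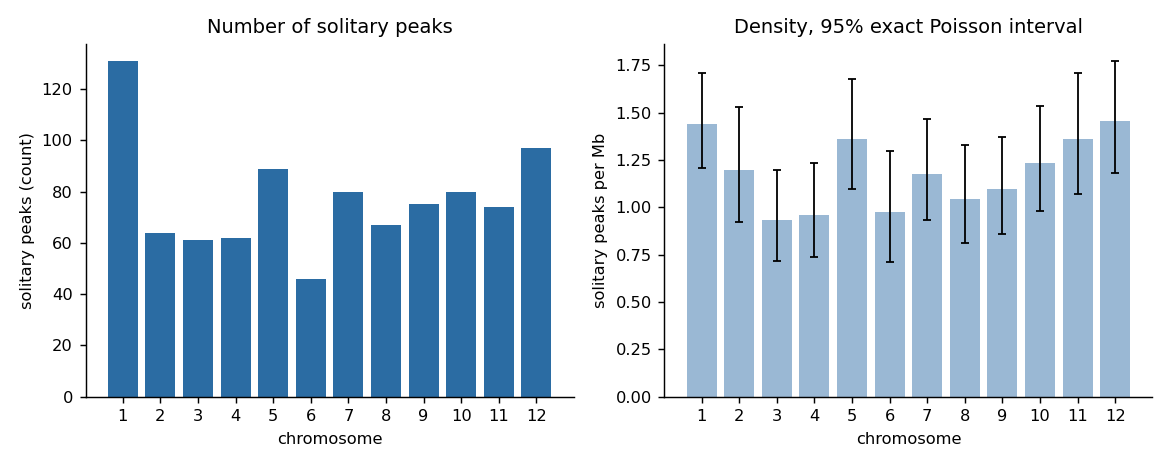
Solitary peaks on each of the 12 chromosomes, as a count (left) and per Mb of span with 95% exact Poisson intervals (right). Counts run between 46 on chromosome 6 and 131 on chromosome 1, while densities lie between 0.93 and 1.45 per Mb.

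Solitary peaks were spread more evenly along the chromosomes than peaks in general, which crowd toward the ends. The first 20% of the span held 153 of them (16.5%), the next 20% held 216 (23.3%), the central 20% held 235 (25.4%), the following 20% held 228 (24.6%) and the last 20% held 94 (10.2%). Of all peaks, by contrast, 27.4% lay in the first and 48.3% in the last 20% of the span. A peak between 20 and 40% of the span was solitary in 6.34% of cases and one in the last 20% in 0.24%. Only 4 solitary peaks lay within 1 Mb of the start or of the last peak of a chromosome, and all 4 were on chromosome 2. The outermost of them was 0.057 Mb from the end of the last peak. On chromosome 9 the first solitary peak came after 11.4% of the span. This distribution follows from the choice by distance and carries no test.

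**Figure D2:**
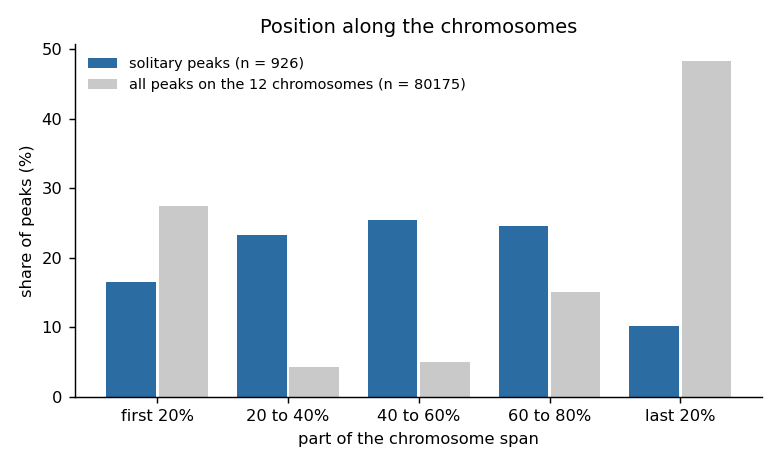
Share of solitary peaks (blue) and of all peaks on the 12 chromosomes (grey) in 5 equal parts of the chromosome span, in percent. The 3 inner parts hold between 23.3% and 25.4% of the solitary peaks each, while the last part holds 48.3% of all peaks.

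The surroundings of the solitary peaks ranged from nearly empty to densely occupied. Chromosomes were divided into bins of 1 Mb, and 472 of the 764 bins with any peak held at least 1 solitary peak. Bins with 20 to 49 peaks held the largest group, 372 solitary peaks (40.2%). Bins with 10 to 19 peaks held 194, and bins with 2 to 9 peaks held 95. In 10 bins a solitary peak was the sole peak. At the other end, 29 solitary peaks (3.13%) lay in bins with 200 or more peaks, where 0.053% of peaks were solitary. The share of solitary peaks was 17.9% in bins with 2 to 9 peaks, 5.70% in bins with 20 to 49 peaks and 0.85% in bins with 100 to 199 peaks.

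Solitary peaks were not confined to 1 per bin. They were alone of their kind in 222 bins, in pairs in 133 and in groups of 3 or more in the others. The bin from 49000001 to 50000000 on chromosome 7 held 8 among 49 peaks, and that from 28000001 to 29000000 on chromosome 2 held 7 among 64 peaks. Solitary peaks could also follow each other along the chromosome with no other peak between them. Of all runs, 490 consisted of 1 solitary peak and 122 of 2. The longest run comprised 7 consecutive solitary peaks on chromosome 1, from 31046632 to 32300300, a stretch of 1254 kb. Their strengths ran between 2.37 and 7.04.

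The gap to the nearer neighbour had a median of 45.0 kb and quartiles of 27.2 and 88.4 kb. The gap on the farther side had a median of 133.4 kb, and the typical solitary peak was 2.16 times as far from one neighbour as from the other (median ratio). The nearer gap exceeded 50 kb for 407 members and 100 kb for 203. Close to the limit, the peak on chromosome 11 from 8674735 to 8675802 was just inside, with a nearer gap of 20034 bp, a width of 1068 bp and a strength of 11.0. Just outside was the peak on chromosome 9 from 68185256 to 68186079, with a nearer gap of 19961 bp, a width of 824 bp and a strength of 2.41. The 85 members with a nearer gap of 20 to 22 kb had a median strength of 3.21 and a median width of 540 bp. The 83 peaks left out with a nearer gap of 18 to 20 kb and a farther gap over 20000 bp had 4.50 and 587 bp.

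The most isolated peak of the list lay on chromosome 11 from 43704586 to 43704993, with 1153 kb free of peaks before it and 1525 kb after it. It was 408 bp wide, had a score of 705 and a strength of 1.95, among the weaker members. Next came the peak on chromosome 9 from 37419528 to 37419689, with gaps of 1244 and 738.3 kb. It was 162 bp wide, with a strength of 4.40 and a score at the cap, as for all 20 solitary peaks under 200 bp. The product of score and width, divided by 1000, had a floor of 200.25 in solitary peaks with a score under the cap, so a peak this narrow could only be at the cap. On chromosome 4 the peak from 36165015 to 36165561 had gaps of 989.1 and 699.6 kb and a strength of 3.44. Strong peaks were also found in such settings. The peak on chromosome 11 from 28084618 to 28086656, with gaps of 696.6 and 890.6 kb, was 2039 bp wide and had a strength of 14.1.

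The other 6 of the 10 most isolated peaks were on chromosomes 4, 8, 9 and 10. Chromosome 4 contributed 3 of them, at 13134806 to 13135273 (strength 6.66), at 16889531 to 16890346 (7.00) and at 27418896 to 27419416 (4.20). The peak on chromosome 8 from 39544427 to 39544901 had a strength of 2.77. The peaks on chromosome 10 from 47842539 to 47842950 and on chromosome 9 from 39116960 to 39117288 were weak, with 1.45 and 1.94. The 10 most isolated peaks thus ranged in strength from 1.45 to 14.1, and none of them was among the 10 strongest solitary peaks.

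Isolation and strength were nearly unrelated within the class. Across the 926 members Spearman's rho was -0.06 between nearer gap and strength and -0.08 between nearer gap and width. These are descriptions over peaks of 1 list, which are not independent. Median strength was 3.55 for nearer gaps of 20 to 30 kb (283 peaks), 3.62 for 30 to 50 kb (236), 3.48 for 50 to 100 kb (204), 3.19 for 100 to 200 kb (125) and 2.92 for 200 to 500 kb (69). It was 3.44 for the 9 peaks with 500 kb or more. The quartiles of all 6 classes overlapped widely.

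**Figure D3:**
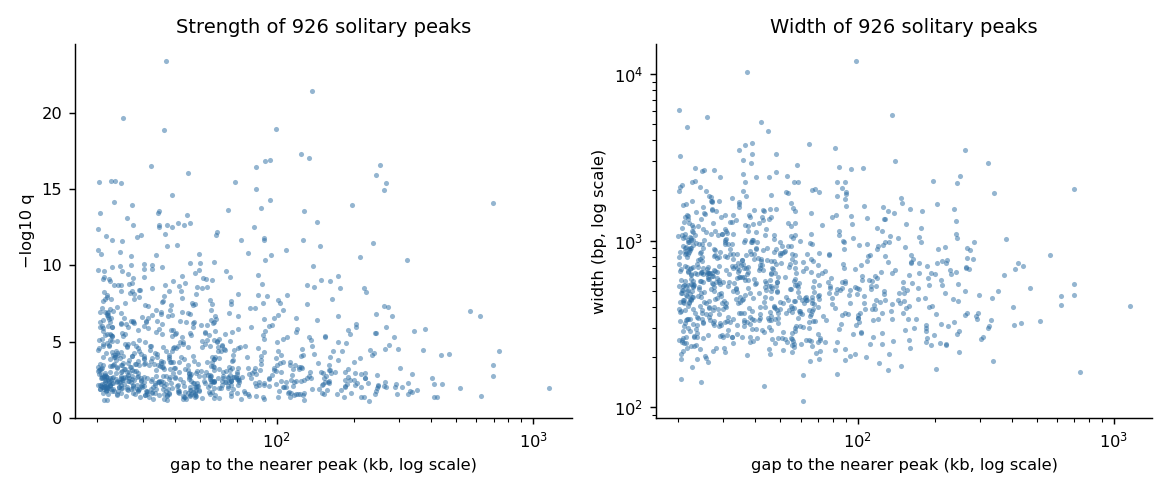
Strength as −log10 q (left) and width in bp (right, log scale) of each of the 926 solitary peaks against the gap to its nearer neighbour in kb (log scale). Points fill the same range of strength and width at most gaps, with rho of -0.06 and -0.08, and few peaks lie beyond 500 kb.

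The strongest solitary peak lay on chromosome 9 from 11009359 to 11019656, with a strength of 23.4. It was 10298 bp wide and had gaps of 48.8 and 37.0 kb. Chromosome 5 held 3 of the 10 strongest. The first, from 54863693 to 54869343, had a strength of 21.5, a width of 5651 bp and gaps of 136.7 and 246.0 kb. The second, from 25260517 to 25263165, had a strength of 19.7 and gaps of 281.3 and 25.1 kb. The third, from 45329740 to 45330800, had a strength of 17.1 in 1061 bp, and gaps of 148.9 and 133.9 kb.

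The fourth in strength overall was the widest of all solitary peaks, on chromosome 7 from 11602709 to 11614671. It spanned 11963 bp with a strength of 19.0. On chromosome 11 the peak from 16782596 to 16786355 had 18.9, and on chromosome 6 the peak from 13481020 to 13482166 had 17.3. Chromosome 8 held a pair, from 38845537 to 38848219 (17.0) and from 35471217 to 35473166 (16.9). The tenth, on chromosome 1 from 10081535 to 10083963 (16.6), was the strong peak with the widest clearance of the 10, with gaps of 335.4 and 251.9 kb.

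The strongest solitary peak of each remaining chromosome was less extreme. Chromosome 10 reached 16.5 at 43964674 to 43966934 and chromosome 12 reached 15.4 at 18657159 to 18658067. Chromosome 4 reached 13.3 at 44874023 to 44878599, chromosome 2 reached 13.1 at 13829199 to 13834694 and chromosome 3 reached 11.8 at 36512069 to 36513852. Over the 12 chromosomes the strongest solitary peak thus ran between 11.8 and 23.4.

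Width and strength rose together over the members, with Spearman's rho of 0.55, as they did over the other peaks of the same bins (0.54). Among the 10 strongest and the 10 widest members, 3 peaks were shared. Exceptions occurred in both directions. The third widest solitary peak, on chromosome 12 from 17670565 to 17676670, spanned 6106 bp with a strength of 3.35. Solitary peaks of 5000 bp or more numbered 6 (0.65%), and those of 250 bp or less numbered 72 (7.78%).

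Solitary peaks were narrower than the other peaks of their own surroundings. Their width quartiles were 369 and 919 bp around a median of 562 bp, against 450 to 1173 bp around a median of 699 bp for the 25041 other peaks of the same 1 Mb bins. To compare like with like, each solitary peak was set against the median of the other peaks of its bin, and the median of these differences was taken on each chromosome. A matched value existed for 906 members, and the other 20 lay in bins without any peak that was not solitary. The matched difference was -112.5 ± 75.5 bp (SD, n = 12) and solitary peaks were narrower on 11 of 12 chromosomes (exact two-sided sign-flip test over chromosomes, p = 0.0015, Benjamini-Hochberg adjusted p = 0.0059 over 4 properties). Chromosome 11 was the exception, with 59.5 bp, and chromosome 6 had the largest deficit, -213 bp. With peaks within 100 bp of each other merged, the difference was -121.4 bp.

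Both ends of the width distribution shifted, in comparisons added after the data were examined. Matched by bin, peaks of 250 bp or less made up 7.46% ± 2.82 of the solitary and 3.90% ± 0.87 of the other peaks (SD, n = 12), and the share was higher among solitary peaks on 11 of 12 chromosomes (exact two-sided sign-flip test, p = 0.0024, adjusted p = 0.0051 over 3 shares). Peaks of 2000 bp or more made up 5.59% ± 3.26 of the solitary and 9.32% ± 2.58 of the other peaks, with a lower share among solitary peaks on 10 of 12 chromosomes (exact sign-flip test, p = 0.0034, adjusted p = 0.0051).

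The median strength of solitary peaks was not detectably apart from that of their surroundings. Their median strength was 3.47, with quartiles of 2.31 and 6.25, against 3.33, with quartiles of 2.18 and 6.53, for the other peaks of the same bins. The matched difference was 0.31 ± 0.57 (SD, n = 12), higher on 9 of 12 chromosomes, and did not pass (exact two-sided sign-flip test, p = 0.084, adjusted p = 0.084). It ran between 1.16 on chromosome 3 and -0.71 on chromosome 6. Without chromosome 6 it was 0.40 (exact sign-flip test, adjusted p = 0.024), so this chromosome decided the call. With a limit of 10000 bp in place of 20000 bp, which took in 1926 peaks, it was 0.56 and passed (exact sign-flip test, adjusted p = 0.0024). When means replaced medians on both sides, a choice added after the data were examined, the difference was -0.16.

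The shares of solitary peaks that passed a q of 0.01 and that reached the score cap were higher than in their surroundings in the 1 Mb bins, with calls that several settings ended, and the share of very strong peaks was lower. A q at or below 0.01 was carried by 82.8% ± 5.56 of the solitary and 78.7% ± 2.56 of the other peaks, a difference of 4.15 ± 4.45 percentage points, higher on 9 of 12 chromosomes (exact sign-flip test, p = 0.014, adjusted p = 0.025). The score cap was reached by 63.2% ± 6.74 of the solitary and 57.0% ± 2.78 of the other peaks (SD, n = 12), a difference of 6.23 ± 7.64 points, higher on 11 of 12 (exact sign-flip test, p = 0.019, adjusted p = 0.025). Without chromosome 3 the differences were 3.78 and 5.00 points and neither passed (exact sign-flip test, adjusted p = 0.051 each), and without chromosome 9 that at the cap was 5.70 (exact sign-flip test, adjusted p = 0.051). The difference at the cap did not pass with bins of 500 kb (4.74 points, exact sign-flip test, adjusted p = 0.14) or among peaks of q at or below 0.01 (4.91 points, adjusted p = 0.056). Neither passed with shares pooled over the bins of a chromosome, at 2.03 and 4.35 points (exact sign-flip test, adjusted p = 0.18 and 0.071). Among the strongest peaks the order was the other way. A strength of 10 or more was carried by 8.75% ± 4.33 of the solitary and 12.7% ± 1.97 of the other peaks, lower among solitary peaks on 9 of 12 chromosomes (exact sign-flip test, p = 0.017, adjusted p = 0.017 over the 3 shares added after the data were examined). This share of very strong peaks was not compared at like width. Peaks over 800 bp made up 31.5% of the solitary and 42.6% of the other peaks. In that class the upper quartiles of strength were 10.2 and 10.3. At a q above 0.05, which marks the faintest calls, stood 14 solitary peaks (1.51%) and 215 of the others (0.86%), a contrast that was not tested.

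**Figure D4:**
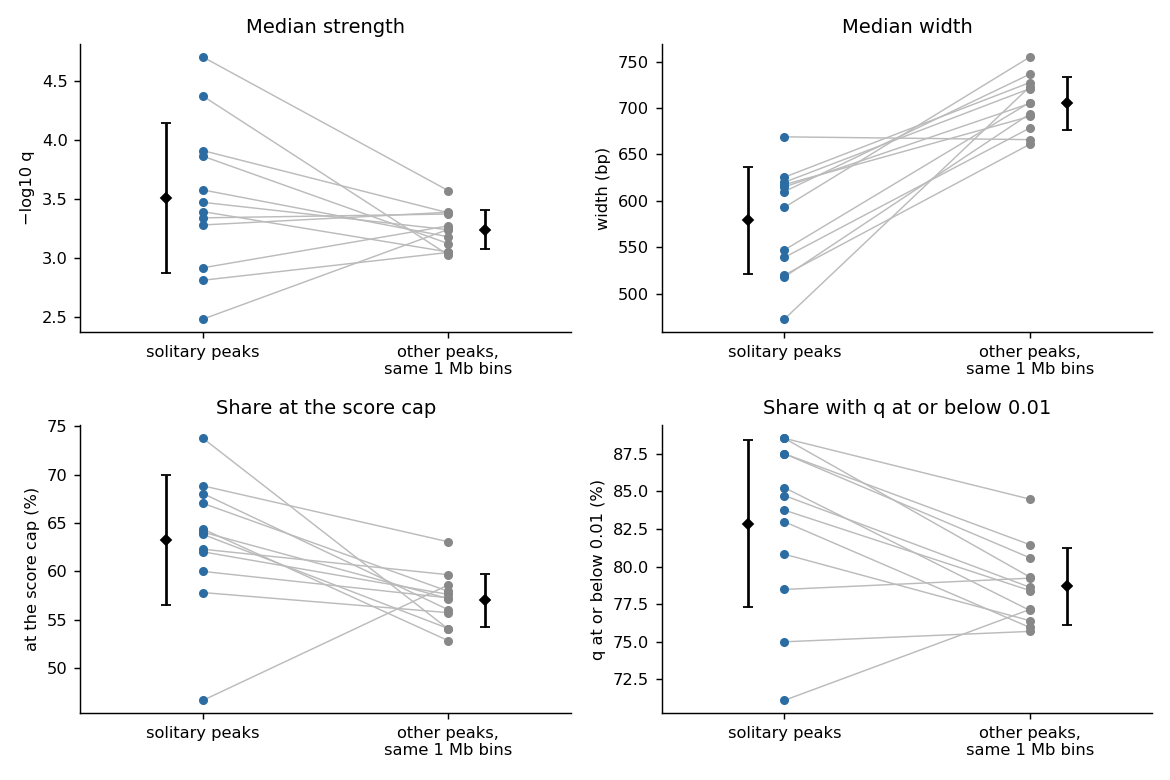
Solitary peaks and other peaks of the same 1 Mb bins on each of the 12 chromosomes (points, joined by chromosome), with the mean and SD over chromosomes (black), for median strength as −log10 q, median width in bp, share at the score cap and share that passed a q of 0.01 in percent. Width is lower for solitary peaks on all chromosomes except chromosome 11, where the medians nearly coincide, and the spread over chromosomes is wider for solitary peaks in each panel.

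Both shares also varied with width. The floor on the product of score and width was seen in solitary peaks with a score under the cap. Whether that floor also bears on q was not tested. Among the other peaks of the same bins, 54.5% of those under 400 bp and 42.0% of those of 400 to 800 bp were at the cap, and 80.6% and 67.9% passed a q of 0.01. Over 800 bp, 76.5% were at the cap and 92.9% passed, the highest shares of the 3 classes. Strength and both shares were therefore also compared at like width. Among peaks under 400 bp the median strength was 2.61 for 273 solitary and 2.55 for 4854 other peaks of the same bins. Between 400 and 800 bp it was 3.02 for 361 solitary and 2.52 for 9514 other peaks. Over 800 bp it was 7.23 for 292 solitary and 6.50 for 10673 other peaks. Matched by both bin and width class, solitary peaks were stronger by 0.41 ± 0.35 (SD, n = 12) and on 11 of 12 chromosomes (exact two-sided sign-flip test, p = 0.0034, adjusted p = 0.0068 with the 3 other properties). This match was available for 873 members. By a comparison chosen once the values were known, both shares were matched in the same way. The share at the cap was higher in solitary peaks by 9.61 ± 7.18 points and that with a q of 0.01 or less by 6.37 ± 5.15 points (SD, n = 12). Each was higher on 11 of 12 chromosomes (exact sign-flip test, p = 0.0020 and 0.0015, adjusted p = 0.0020 each over both shares, or 0.0039 and 0.0029 with the 3 other properties). The 3 classes are broad, and differences in width within a class remain. The class medians lay closer together under 400 bp than in both wider classes, a contrast that was not tested.

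**Figure D5:**
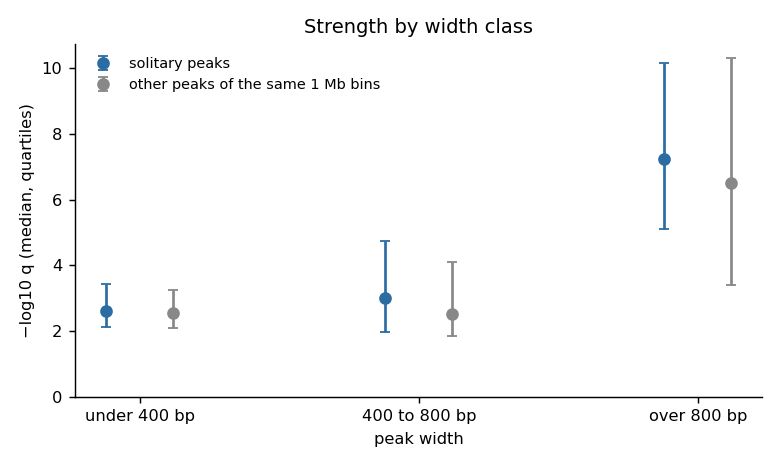
Median strength as −log10 q with quartiles (bars) of solitary peaks and of other peaks of the same 1 Mb bins, in 3 classes of width. The medians nearly coincide under 400 bp (2.61 and 2.55) and stand apart over 800 bp (7.23 and 6.50), with quartiles that overlap in every class.

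The most similar peaks of the list are those at the edge of an empty stretch, the 7541 peaks with a gap over 20000 bp on exactly 1 side. Their median strength was 3.61 and their median width 679 bp. Against those in the same bins, solitary peaks differed by -0.080 in strength (exact sign-flip test, adjusted p = 0.80), by 1.00 points in the share at the cap and by 0.40 points in the share that passed a q of 0.01 (exact sign-flip test, adjusted p = 0.80 each). In width they differed by -86.4 bp (exact sign-flip test over chromosomes, adjusted p = 0.014). This comparison was matched by bin and not by width class. Its values for strength and both shares are therefore not on like terms with those given at like width.

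Width followed the distance to the nearest neighbour over the whole of the same bins. Median width was 746 bp for the 9845 peaks with a neighbour within 100 bp, 692 bp from there to 1000 bp, 652 bp to 5000 bp, 641 bp to 20000 bp and 562 bp for the solitary peaks. Strength took another course, with medians of 3.57, 3.10, 3.14, 3.81 and 3.47 in the same order. The peaks with the nearest neighbour 5000 to 20000 bp away therefore had the highest median strength of these 5 classes, and the solitary peaks came after them and after the closely packed peaks. In the same order, 62.6%, 55.5%, 56.3%, 67.5% and 63.5% of peaks were at the score cap. A q at or below 0.01 was carried by 84.2%, 78.7%, 78.0%, 83.6% and 83.6%. The peaks with the nearest neighbour 5000 to 20000 bp away thus matched or exceeded the solitary peaks in both shares. These medians and shares over peaks carry no test.

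Solitary peaks can be seen as the smallest of the islands into which gaps over 20000 bp divide the peaks. Of 4707 such islands bounded by a gap on each side, 926 (19.7%) held 1 peak, 645 held 2, 493 held 3, 388 held 4, 964 held 5 to 9 and 1291 held 10 or more. Peaks of the islands of 2 had a median width of 628 bp and a median strength of 3.49, and those of the islands of 3 had 669 bp and 3.51. In islands of 2, the gap between both peaks had a median of 815 bp, and in 135 of the 645 it was 100 bp or less. When peaks within 100 bp were merged, 167 further solitary regions arose.

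Strength of the solitary peaks was also compared along the chromosome. The median was 3.47 ± 0.70 for those in the outer parts of the span, the first and last of 3 equal parts, and 4.00 ± 1.12 for those in the middle part (SD, n = 12), and the outer ones were stronger on 5 of 12 chromosomes. The difference of -0.53 was smaller than its spread over chromosomes (1.22) and did not pass (exact two-sided sign-flip test, p = 0.17). Chromosome 11 had the largest contrast, with an outer minus middle difference of -2.88, and chromosomes 4 and 12 had 0.78 each. Matched by bin, solitary peaks exceeded the other peaks by 0.15 ± 0.62 in the outer parts and by 0.73 ± 0.98 in the middle part, and the difference between these, added after the data were examined, did not pass either (exact sign-flip test, p = 0.065, adjusted p = 0.13 over 2 properties).

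The median strength and width of solitary peaks varied among the chromosomes. Chromosome 9 had the highest median strength, 4.60 over 75 peaks, followed by chromosome 3 with 4.37 over 61. Chromosome 6 had the lowest, 2.47 over 46, together with the lowest share at the score cap, 45.7%. The other peaks of the same bins spread less, with medians between 3.03 and 3.49. The median width of solitary peaks ran from 472.5 bp on chromosome 10 to 664 bp on chromosome 11. With 46 to 131 solitary against 1290 to 2860 other peaks a chromosome, the medians of the solitary peaks rest on fewer values, and differences among single chromosomes were not tested.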

How the data were processed

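ATAC-seq of 6 samples, 1 group by their titles, was deposited as 1 peak list. Per the labels, each sample was 1 g of tissue, 100000 nuclei were treated with transposase for 30 min at 37 °C, and paired reads of 50 bases were sequenced. Genrich 0.6, bedtools, SAMtools, Picard, BWA and Trimmomatic stand in the submitters' processing notes, without roles. The chromosome names of the list give SL4.0. Treatment of duplicates and of reads with several positions is not given in the sources used here, and it bears on where peaks can be called in repeats. The deposited score is a whole number up to 1000, and the deposited −log10 q stands in each peak's name. The lowest −log10 q on the 12 chromosomes was 0.95, so the list holds calls with a q above 0.05. The shortest gap between neighbouring peaks was 31 bp, so calls closer than that do not stand apart in the list.

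Positions are 1-based, gaps run from edge to edge, and bins go by midpoints. The first and last peak of each chromosome (24 in all) could not be members, and 3 of these had a gap over 20000 bp. Chromosome values entered exact two-sided sign-flip tests (4096 sign patterns) with Benjamini-Hochberg adjustment. The matched comparison of strength and its sign-flip test were tried on strengths permuted over the peaks. That trial did not cover the adjustment, width, the shares or dependence between neighbouring peaks. Regions named are the 10 strongest, the 5 widest, the 10 most isolated, the strongest of each chromosome and examples at the limit. Longest runs and fullest bins were picked after their values were seen. Members and classes were chosen with earlier results of these data known. Alternatives varied q, merging, gap limit, bin size, comparison set and summary. Gene tables of another assembly were not used. Work was done with matplotlib 3.10.9, scipy 1.17.1, pandas 2.3.3, numpy 2.4.6 and Python 3.11.15.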

Additional observations from a re-analysis of the deposited data

Results flagged for a closer look

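Sequence not placed on a chromosome lay outside all comparisons and held a signal. Of its 521 peaks, 14 (2.69%) had a gap over 20000 bp on both sides, with a median strength of 2.64, a median width of 650.5 bp and a maximum strength of 48.1. The order of the pieces joined in this sequence is not given in the sources used here.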

How the results depend on the processing

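Of the 4 matched properties, the lower width of solitary peaks kept its direction and its call under 10 of 11 alternatives, between -80.6 and -170.7 bp. The exception set means of solitary peaks against medians of the others. As both are skewed, this lifts the difference by construction, to 80.1 bp in width and to 1.31 in strength (exact sign-flip test, adjusted p = 0.0039). With pooled shares the difference at the score cap was 4.35 points and that with a q at or below 0.01 was 2.03 points, neither passing. With means on both sides the difference in strength was -0.16. Strength passed with a gap over 10000 bp (0.56), with bins of 2 Mb (0.31) and at like width (0.41). It reversed to -0.080 against peaks with 1 open side, a comparison not matched by width. There the share at the cap fell to 1.00 points and that with a q at or below 0.01 to 0.40 points. The share at the cap also lost its call with bins of 500 kb (4.74) and with only peaks of q at or below 0.01 (4.91). The difference between outer and middle parts passed in the last of these settings, at -0.72 (exact sign-flip test, p = 0.036). The causes were not tested.

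With 1 chromosome left out at a time, width stayed between -128.1 and -103.4 bp, strength between 0.23 and 0.40, the share at the cap between 5.00 and 7.88 points, that with a q at or below 0.01 between 3.69 and 5.07 points, and outer minus middle between -0.65 and -0.32. The number of solitary peaks was 1926 with a gap over 10000 bp and 407 over 50000 bp, or 2.46% and 0.52% of a chromosome's peaks. That share was 1.69% with a q at or below 0.01, where 774 of 926 members remained among 1081, and 1.82% after merging within 100 bp. A q at or below 0.05 gave 926 again, 912 of them shared. The matched share difference for a q at or below 0.01 has no value once all peaks meet that limit. No paired analysis was possible because the list joins the 6 replicates. Replicates could not be left out for the same reason, and depth per sample is unknown, so an empty stretch is a stretch without calls.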
